A study of Mus musculus with 6 samples.

Results

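Steroid hormones are made active or inactive within their target tissue by a small set of enzymes. Hydroxysteroid dehydrogenases switch a hydroxyl group on the steroid to a ketone or back, reductases saturate the steroid ring, and sulfotransferases add a sulfate that sulfatase removes. In the uterus these steps set how much corticosterone, oestradiol, androgen and progesterone reaches the receptors. The enzymes described here are 10 genes of this kind: Hsd11b1 and Hsd11b2 (glucocorticoids), Hsd17b1, Hsd17b2, Hsd17b4 and Hsd17b11 (oestrogens and androgens), Srd5a1 and Akr1c18 (reduction of progesterone and androgens), and Sult1e1 and Sts (sulfation and its reversal). A gene was taken where a probe set carried its symbol alone in the platform annotation. That gave 11 probe sets for 8 of the 10 genes, among 18193 genes in all, and where a gene had several, the brightest on average stands for it. Srd5a1 and Sts were not analysed here.

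Whole uterus was taken from female mice of 8 weeks, of mixed background and with both Gata2 alleles floxed (GATA2 f/f), a genotype that both groups share and for which no recombinase is named. The ovaries had been removed at 6 weeks of age. The progesterone group (3 arrays) received 1 mg of progesterone in 100 µl of sesame oil, and the oil group (3 arrays) received the oil, each 6 h before the tissue was collected. RNA was pooled from 3 mice, and whether each array held a pool of its own is not stated. The p-values therefore reflect only the scatter among these 6 samples, and some of it may be technical. Levels are on the log2 scale of RMA, which subtracts background, makes the arrays' distributions alike and summarizes the probes of each probe set. The number of arrays limits the precision of every value.

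The files hold no detection calls, so the 90th percentile of 39 olfactory receptor genes, between 4.12 and 4.53 on the 6 arrays, served as a gauge of background. The arrays showed transcripts of uterine stroma, epithelium and muscle well above background, with list means of at least 10.75, 9.82 and 10.35 on progesterone arrays and 10.82, 10.22 and 10.39 on oil arrays. Of 6 ovarian markers, Star, Inha, Amh and Foxl2 lay above the gauge on all 6 arrays. Cyp11a1, the first enzyme of steroid synthesis, lay under it on all 6, and Fshr on 5. The ovarian list mean was 6.02 to 6.12 after progesterone and 5.98 to 6.18 after oil. Progesterone replicates 2 and 3 and oil replicate 3 carried far more of the neutrophil transcript S100a8 (12.02, 12.48 and 11.82) than the other arrays (4.34 to 5.01), and oil replicate 3 carried liver transcripts such as Alb (8.71 against at most 4.29 elsewhere). In whole tissue, fewer cells of a type and less RNA per cell cannot be told apart.

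Without a block for the replicate number, 2 of the 8 measured enzymes passed the test, in opposite directions. With the block Hsd11b1 passed as well, making 3 of 8, when 7.6% of all genes were called higher and 8.49% lower. Hsd11b2, which inactivates corticosterone, rose 9.13-fold, and Hsd17b11, which oxidizes androstanediol on lipid droplets, fell 1.62-fold. Hsd11b1, which regenerates corticosterone, had a lower mean after progesterone that did not pass without the block (limma adjusted p = 0.152) and passed with it (0.015). Hsd17b4 lay well above background with nearly equal means in the groups, Hsd17b1 lay at the edge of background, and Hsd17b2, Akr1c18 and Sult1e1 were near background in both groups. Among all genes 5.92% were called higher and 5.83% lower without the block (limma, Benjamini-Hochberg adjusted p under 0.05). With 8 members, 1 called in each direction is close to that background. The 3 arrays of each group lay apart for 2 of the 8 members, Hsd11b2 and Hsd17b11, and for 30.4% of all genes. The median log2 change over the 8 members was 0.10, and over all genes it was -0.02.

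**Figure D1:**
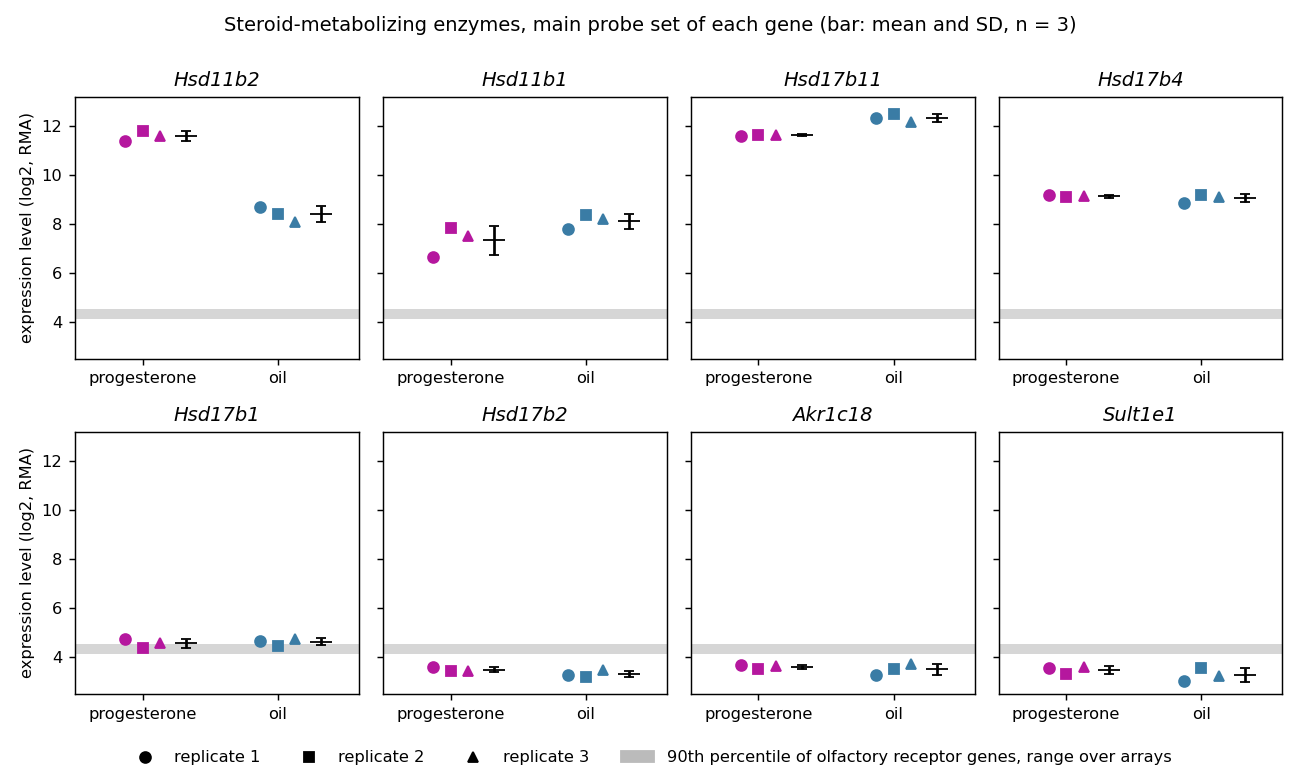
Expression level (log2, RMA) of each measured enzyme on each array, progesterone left and oil right, with the mean and SD (n = 3) beside the points. Hsd11b2 is high on all 3 progesterone arrays, Hsd17b11 is low on them, and Hsd17b2, Akr1c18 and Sult1e1 lie under the grey band that marks the background gauge.

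Both enzymes of the glucocorticoid switch were measured. Hsd11b2 oxidizes corticosterone to an inert ketone and so keeps it from the mineralocorticoid receptor. Its level was 11.37, 11.81 and 11.59 on the progesterone arrays and 8.71, 8.41 and 8.08 on the oil arrays (log2). The lowest progesterone array lay above the highest oil array, and both groups lay well above the background gauge. The log2 change was 3.19 ± 0.184 (SE), with a 95% interval of 2.76 to 3.62 (limma adjusted p = 0.0011). By size of the log2 change Hsd11b2 was number 9 from the top among 18193 genes. The log2 change lay between 3.03 and 3.34 when each array was left out in turn, and without oil replicate 3 and progesterone replicate 3 together it was 3.03 (limma adjusted p = 0.00547). With the 3 arrays of high S100a8 left out, which leaves progesterone replicate 1 against oil replicates 1 and 2, it was 2.81, and the call ended (limma adjusted p = 0.147), as did every other call among all genes. At an unadjusted p under 0.05 in limma, 3 members passed there (Hsd11b2 higher, 2 lower), against 18.6% of all genes.

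Hsd11b1 works in the opposite direction in the endoplasmic reticulum, with cofactor supplied by H6pd. It was at 6.66, 7.83 and 7.49 on the progesterone arrays and 7.78, 8.36 and 8.18 on the oil arrays (log2). The groups overlapped only through progesterone replicate 2, which lay above oil replicate 1. The mean was 7.33 ± 0.602 after progesterone and 8.11 ± 0.297 after oil (SD, n = 3 each), and the log2 change of -0.78 (95% interval -1.49 to -0.07) did not pass (limma adjusted p = 0.152). In both groups replicate 1 was lowest and replicate 2 highest, and the arrays of the same number differed by -1.12, -0.53 and -0.69. With the replicate number as a block the same change passed (limma adjusted p = 0.015), when 8.49% of all genes were called lower. That block is a pairing read from the data, and the labels do not state it. Without progesterone replicate 1 the log2 change was -0.45, and without progesterone replicate 2 it was -1.03, neither of which passed. H6pd was at 8.74 ± 0.265 after progesterone and 8.83 ± 0.226 after oil (SD, n = 3 each, limma adjusted p = 0.808).

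Hsd11b1 is also abundant in fat and is found in macrophages, so those markers are given beside it. The mean over 5 measured adipocyte markers was 4.63, 5.12 and 4.24 on the progesterone arrays and 5.49, 5.56 and 5.09 on the oil arrays, and the adipocyte hormone Adipoq was at 5.80, 7.21 and 4.39 after progesterone and at 8.02, 8.11 and 7.08 after oil (log2). Adipocyte markers thus had a lower mean after progesterone, as Hsd11b1 did, although 0 of the 5 passed in limma (3 at an unadjusted p under 0.05), and Lep and Pck1 were near background on all arrays. The mean over 6 macrophage markers was 6.06, 7.49 and 7.53 after progesterone and 6.25, 7.17 and 7.51 after oil, lowest on replicate 1 of both groups, with 0 of 6 past the threshold in limma (0 at an unadjusted p under 0.05). Their part in the values of Hsd11b1 was not tested.

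The log2 difference between the enzymes of the switch was larger after progesterone, mostly through the change of 3.19 in Hsd11b2 given above. The log2 value of Hsd11b2 minus that of Hsd11b1 was 4.71, 3.98 and 4.10 on the progesterone arrays and 0.93, 0.05 and -0.10 on the oil arrays. The groups lay far apart, with a difference of 3.97, or 15.7-fold in the ratio (exact permutation test over 20 splits of the arrays, two-sided p = 0.1, the smallest this design allows). Each probe set has its own response, so the ratio shows a shift between the groups and not which transcript was more abundant. Leaving out each array in turn gave differences between 3.75 and 4.29.

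**Figure D2:**
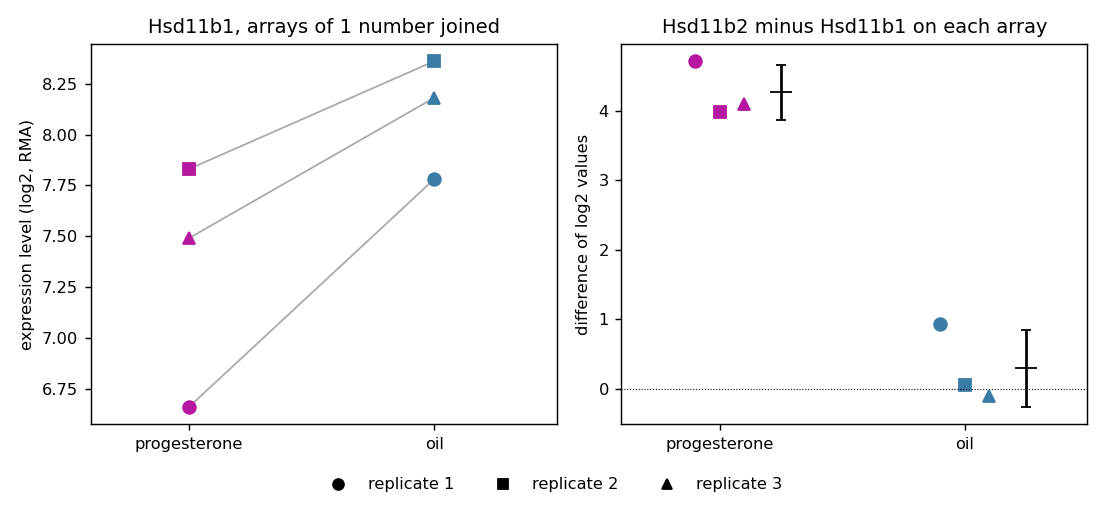
Left, the log2 level of Hsd11b1 in both groups, with arrays of the same replicate number joined; in each of the 3 joined pairs the progesterone array is lower. Right, the difference of log2 values between Hsd11b2 and Hsd11b1 on each array with the group mean and SD (n = 3), between 3.98 and 4.71 after progesterone and between -0.10 and 0.93 after oil.

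Among the enzymes of the oestrogen and androgen switch, Hsd17b11 changed. Its main probe set was at 11.59, 11.65 and 11.65 on the progesterone arrays and 12.32, 12.48 and 12.18 on the oil arrays (log2). The progesterone arrays lay within 0.06 of each other and all below the oil arrays. The log2 change was -0.70 ± 0.103 (SE), with a 95% interval of -0.94 to -0.45 (limma adjusted p = 0.00877), and it lay between -0.77 and -0.62 with each array left out in turn, every one of which kept the call. Without the 3 arrays of high S100a8 it was -0.81 and the call ended (limma adjusted p = 0.179). The mean change of Hsd11b1 was as large (-0.78), but its values scattered more, with a standard error of 0.300 against 0.103.

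The 3 probe sets of Hsd17b11 did not all respond. When every probe set was tested on its own, which called 7.77% of them, a dimmer probe set was at 7.75, 8.21 and 8.19 after progesterone and at 8.85, 9.24 and 8.94 after oil. It fell by 0.96 on the log2 scale (SE 0.162, limma adjusted p = 0.0145), in the same direction as the main probe set (limma adjusted p = 0.0109 in that fit). The third was near background in both groups, at 3.36 to 3.53 after progesterone and 3.30 to 3.63 after oil, and gave no measure of a change.

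Hsd17b4, a peroxisomal enzyme that also oxidizes oestradiol, was at 9.20, 9.08 and 9.12 on the progesterone arrays and 8.87, 9.19 and 9.08 on the oil arrays (log2). The groups overlapped, and the 95% interval of the log2 change, -0.17 to 0.34, leaves room for a difference of that size in either direction (limma adjusted p = 0.698). Its other probe set gave a change of 0.24 (limma adjusted p = 0.413 over all probe sets). Hsd17b1, which makes oestradiol from oestrone, was at 4.75, 4.37 and 4.57 after progesterone and at 4.66, 4.47 and 4.75 after oil, only 0.02 to 0.32 above the gauge of background on each array. Its log2 change was -0.06 (95% interval -0.37 to 0.24, limma adjusted p = 0.831). Hsd17b2, which turns oestradiol back to oestrone, was at 3.60, 3.42 and 3.44 after progesterone and at 3.29, 3.21 and 3.46 after oil, under the gauge on all 6 arrays (limma adjusted p = 0.39). The log2 difference between Hsd17b2 and Hsd17b1 differed by 0.23 between the groups (exact permutation p = 0.1, two-sided, the smallest possible), a value that rests on signal near background for both.

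Akr1c18, which inactivates progesterone by reduction and is best known from the regressing corpus luteum, was at 3.69, 3.52 and 3.62 on the progesterone arrays and 3.28, 3.51 and 3.71 on the oil arrays (log2). Sult1e1, which sulfates oestrogens, was at 3.57, 3.30 and 3.59 after progesterone and at 3.03, 3.57 and 3.22 after oil. All of these values lay under the gauge of background, and for Sult1e1 2 arrays and for Hsd17b2 1 array lay no higher than TrpnX, a bacterial control that was not expected to find a target in mouse RNA. No change was detectable for Akr1c18 or Sult1e1 (limma adjusted p = 0.669 and 0.472), and near background a change in a scarce transcript could go unseen.

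**Figure D3:**
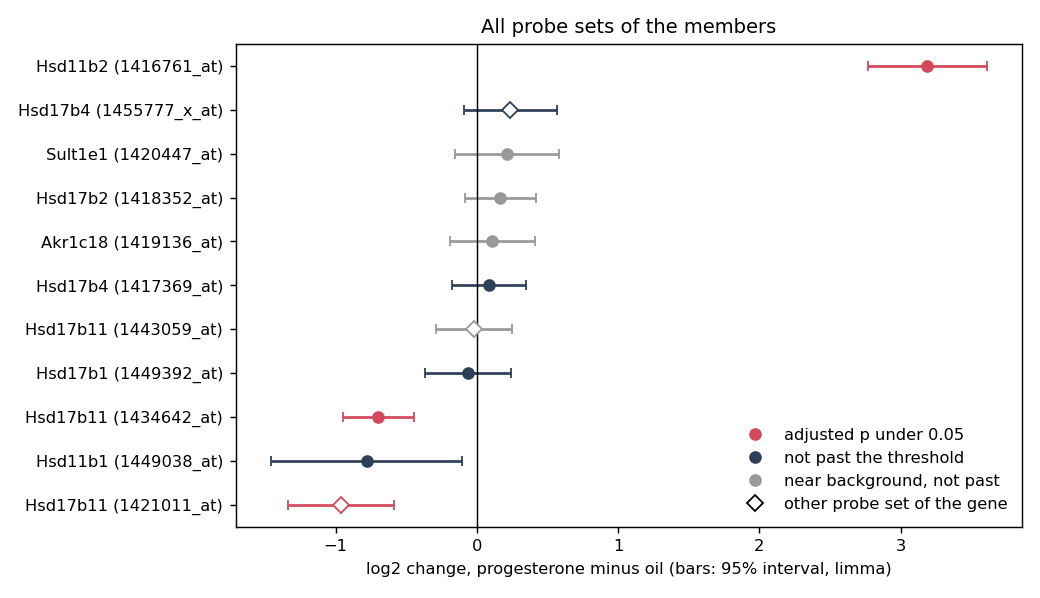
Log2 change (progesterone minus oil) of the 11 probe sets with the 95% interval from limma, fitted over all probe sets; grey marks probe sets near background and open diamonds the other probe sets of a gene. Hsd11b2 stands at 3.19, and 2 of the 3 probe sets of Hsd17b11 lie below 0 with their intervals.

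RefSeq promoter windows (GRCm38.p6) were at hand for 5 of the 10 genes. Among them were Hsd17b11, which fell, and Hsd11b1, whose mean change was of like size but did not pass. Hsd11b2, the member with the largest change, had no window and was not searched. The windows of Hsd17b11 and Hsd11b1 are shown because progesterone and glucocorticoid receptors bind related DNA elements and the animals come from a Gata2 study. The 250 bases before the start are printed 5′ to 3′ on the minus strand, with the CCAAT box, a common promoter element, in capitals. The start of Hsd11b1 in this table lies inside the gene's span, so other starts of that gene are not covered.
Hsd17b11 (chr5:104021797-104022046): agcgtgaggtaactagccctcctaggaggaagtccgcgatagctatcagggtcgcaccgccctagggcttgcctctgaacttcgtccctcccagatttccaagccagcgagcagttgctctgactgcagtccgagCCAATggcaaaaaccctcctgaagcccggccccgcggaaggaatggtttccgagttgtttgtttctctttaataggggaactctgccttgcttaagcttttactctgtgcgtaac
Hsd11b1 (chr1:193242361-193242610): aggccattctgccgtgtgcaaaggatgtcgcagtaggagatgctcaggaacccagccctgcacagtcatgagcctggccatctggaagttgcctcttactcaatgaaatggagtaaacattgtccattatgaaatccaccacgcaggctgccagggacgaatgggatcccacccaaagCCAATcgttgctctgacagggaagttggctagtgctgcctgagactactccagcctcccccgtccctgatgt

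The receptor half-site TGTTCT, searched on both strands, was in neither window, against 16.1% of 32851 RefSeq promoter windows of the same length. The palindrome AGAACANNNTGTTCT, which holds that half-site on each strand, was in neither, against 0.00913% of windows. AGATAA, a form of the GATA motif, was in neither, against 9.99% of windows. Other forms of that motif were not searched, so their absence is not shown. The CCAAT box, chosen after the sequences were seen, was present once in each and in 33.8% of windows. It lay at position -115 in Hsd17b11 and -72 in Hsd11b1, counted at its first base from the start.

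The genes most like a called member were those whose levels on the 6 arrays, each centred on its own mean, had the smallest root mean square difference from it, among 13958 genes not near background on all arrays. For Hsd11b2 these were Il13ra2, the decoy receptor for interleukin 13 (difference 0.347 in log2 units), Fkbp5, a cochaperone of steroid receptors (0.367), and Mthfd2, a mitochondrial enzyme of folate metabolism (0.396). Their log2 changes were 3.70, 2.98 and 2.85, and that of Fkbp5 was 1.28 with its probe sets averaged. For Hsd17b11 they were Zfp90, a zinc finger factor (0.048), Paip2, a regulator of poly(A)-binding protein (0.053), and Gstt1, a glutathione transferase (0.056), with log2 changes of -0.71, -0.61 and -0.65. All 6 passed the test, which is no separate result, since they were chosen by likeness to a called member on the same arrays. The same holds for calls kept with an array left out. Only that of Gstt1 ended (limma adjusted p = 0.0517 without oil replicate 1 and 0.0586 without oil replicate 2). The profile of Hsd17b11 was matched far more closely, in log2 units, than that of Hsd11b2, whose change is larger.

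Most genes beside the called members on the chromosome were not called, as holds for all genes (limma, 5.92% called higher and 5.83% lower). With so few neighbours, the counts say little about them. Of the 3 measured protein-coding genes on each side of Hsd11b2 in RefSeq order (Lrrc36, Tppp3, Zdhhc1, Atp6v0d1, Ripor1 and Ctcf), 0 rose and 1 fell. That was Lrrc36, at 4.01 after progesterone and 4.75 after oil and so close to the gauge of background (log2 change -0.73, limma adjusted p = 0.00616, and -0.29 with 32 added before log2), and the others lay between -0.28 and 0.11. Beside Hsd17b11, Aff1 rose (log2 change 0.70, limma adjusted p = 0.0217, a call that ended without progesterone replicate 2 and without any of the oil arrays, and at 0.37 with its probe sets averaged, adjusted p = 0.075), and Klhl8, Hsd17b13, Nudt9, Sparcl1 and Dspp did not pass. Hsd17b13, a lipid droplet relative of Hsd17b11 that lies next to it, was at 4.44 after progesterone and 4.21 after oil (log2 means, limma adjusted p = 0.309).

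Other genes that make, convert or bind steroids were taken from 6 lists. Of 72 measured, 2 were higher and 9 lower, or 15.3%, against 11.7% of all genes, and 24 of the 72 were near background on all arrays. When the replicate number was a block, 4 of the 72 passed as higher and 12 as lower, against 7.6% and 8.49% of all genes. The median log2 change of the 72 was -0.06.

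Among the other reductases and aldo-keto reductases, 0 of 10 were higher and 3 were lower, against 5.92% and 5.83% of all genes. All 3 were relatives of Akr1c18 that the uterus did express. Akr1c19 was at 7.01, 6.73 and 7.06 after progesterone and at 8.33, 7.97 and 8.07 after oil (log2), and fell 2.28-fold (limma adjusted p = 0.00411). Akr1c13 and Akr1c14, the second a converter of androstanediol, fell 1.93-fold and 1.88-fold (limma adjusted p = 0.0326 and 0.0206). All 3 had the progesterone arrays below the oil arrays. The call of Akr1c19 held with each array left out in turn, that of Akr1c14 ended without oil replicate 1, 2 or 3 (adjusted p between 0.0563 and 0.0779), and that of Akr1c13 ended without any array but progesterone replicate 1 (adjusted p between 0.0697 and 0.111). Genes of this family resemble each other in sequence, and hybridization of one to the probes of another was not tested. Akr1c12 was at 5.28 after progesterone and 5.44 after oil (adjusted p = 0.492), and Akr1c20, Akr1c21 and Akr1d1 were near background.

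Of 5 measured receptors of these steroids, 4 were called lower and 0 higher, against 5.83% and 5.92% of all genes. Nr3c2, the mineralocorticoid receptor that Hsd11b2 shields, was at 7.35, 7.30 and 7.16 after progesterone and at 7.75, 8.08 and 7.87 after oil (log2), and fell 1.55-fold (limma adjusted p = 0.0169). Nr3c1, the glucocorticoid receptor, was at 9.02, 9.30 and 8.95 after progesterone and at 9.56, 9.64 and 9.47 after oil, and fell 1.38-fold (limma adjusted p = 0.0467). The progesterone receptor Pgr fell 2.08-fold and the oestrogen receptor Esr1 1.37-fold, and Esr2 was near background. The call of Nr3c2 ended without progesterone replicate 2 (adjusted p = 0.0557) or oil replicate 2 (0.0639), and that of Nr3c1 ended without any array but progesterone replicate 2 (adjusted p between 0.0781 and 0.16). That of Esr1 ended without any array but progesterone replicate 1, and that of Pgr held with each array left out in turn. With every probe set tested, the other Esr1 probe sets changed by -0.25 and -0.17 on the log2 scale (limma adjusted p = 0.471 and 0.618). The other Pgr probe sets changed by -0.83 and -0.63 (limma adjusted p = 0.11 and 0.0827).

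Of the conjugation and deconjugation genes, 2 in sulfation passed, in opposite directions. Sult1a1, a sulfotransferase of phenols, was at 9.46, 9.12 and 8.86 after progesterone and at 8.18, 8.57 and 8.35 after oil (log2), and rose 1.72-fold (limma adjusted p = 0.0318). Papss1, which makes the sulfate donor, fell 1.34-fold, with a mean of 9.74 ± 0.0404 after progesterone and 10.17 ± 0.0656 after oil (SD, n = 3 each, limma adjusted p = 0.0225). These were the 2 of 21 conjugation and deconjugation genes that passed, against 11.7% of all genes. The call of Sult1a1 ended without any array but progesterone replicate 3 (adjusted p between 0.0559 and 0.108), and that of Papss1 ended whichever array was left out (0.0528 to 0.0785).

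Cyp39a1, which hydroxylates oxysterols on the way to bile acids, showed the largest change among the 72 genes. It was at 6.68, 6.65 and 6.50 after progesterone and at 8.22, 8.25 and 7.92 after oil (log2), and fell 2.87-fold (limma adjusted p = 0.00142), the 1 of 11 hydroxylation and cofactor genes that passed. In synthesis from cholesterol 0 of 14 passed in limma (1 at an unadjusted p under 0.05), 7 of the 14 were near background, and the largest change was that of Tspo, a protein of the outer mitochondrial membrane (log2 change -0.37, limma adjusted p = 0.155). Among 11 other hydroxysteroid dehydrogenases Hsdl2, a peroxisomal relative of the family, rose 1.42-fold (limma adjusted p = 0.0313), a call that ended without oil replicate 1 or 2 or progesterone replicate 2 or 3. Hsd17b12, which acts in fatty acid elongation, had the largest mean change of that list without passing (log2 change 0.56, limma adjusted p = 0.0811).

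**Figure D4:**
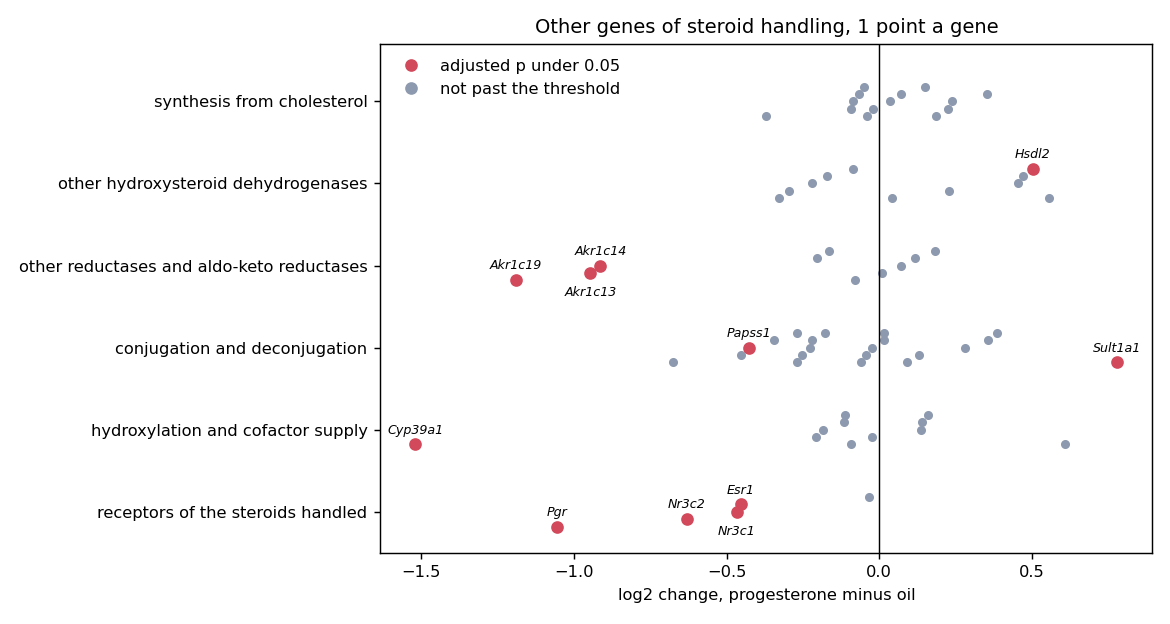
Log2 change (progesterone minus oil) of the 72 measured genes of 6 lists of steroid handling, 1 point a gene, with the called genes in red and named. The reductases and the receptors have called genes only on the lower side, and Hsdl2 and Sult1a1 are the 2 called on the higher side.

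Markers of uterine compartments moved with the treatment only in part. Of 9 epithelial markers 1 was higher, the tight junction gene Cldn3 (log2 change 1.15, limma adjusted p = 0.00624), and 4 of the 9 had an unadjusted p under 0.05 in limma. Most of the list had a lower mean after progesterone without passing, such as the keratin Krt18 (log2 change -0.76, adjusted p = 0.0589), with a median log2 change of -0.31. The list mean ranged from 9.82 to 10.48 after progesterone and from 10.22 to 10.47 after oil. Of 8 stromal markers the homeobox factor Hoxa11 (log2 change 1.13) and the transcription factor Hand2 (0.64) rose and the matrix gene Lum fell (-1.01), with list means of at least 10.75 after progesterone and at least 10.82 after oil. The calls of Hand2 and Lum ended without oil replicate 1 or 2, and that of Lum also without oil replicate 3 or progesterone replicate 3. Of 7 myometrial markers 0 passed in limma (1 at an unadjusted p under 0.05). Adipocyte and endothelial markers had a lower mean after progesterone, with median log2 changes of -0.58 and -0.3, without passing. The part of tissue makeup in the values of Hsd11b2 and Hsd17b11 was not tested.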

How the data were processed

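The submitters' processing notes name RMA and Partek 6.6, without settings. The table the authors deposited gives 45101 probe sets on the log2 scale, with array medians of 5.51 to 5.53. Of these 34945 had 1 gene symbol in the platform annotation, giving 18193 genes. The genes were fitted with limma 3.58.1 in R 4.3.3 (lmFit, eBayes, no filter, no block), progesterone minus oil, two-sided, with Benjamini-Hochberg adjustment over all genes. Every probe set other than the 64 controls was fitted likewise. The procedure was tested on simulated data.

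The members and lists were chosen with earlier results of these data known, and the lists were written from textbook knowledge. All members are named, with up to 4 called genes of each steroid list (where fewer than 2 were called, also the gene with the largest change), the 3 most similar genes of each called member, and up to 3 called markers of each marker list. The neighbouring genes, S100a8, Alb, H6pd, Akr1c12, Krt18, the ovarian and adipocyte markers and the genes named as near background lie outside this rule. They were chosen after their values could be seen. Of 13 marker lists, those whose counts are not given above had 0 called genes (gland, endothelium, neutrophil, ovary, adrenal, oviduct and mesothelium, with 0, 3, 0, 1, 1, 1 and 0 at an unadjusted p under 0.05 in limma) or, for liver, 1. That was Ttr, whose main probe set (log2 change 2.61) lost its call without any array but oil replicate 3. With every probe set tested, its other probe sets rose by 1.51 to 2.73 on the log2 scale (limma adjusted p between 0.00106 and 0.0183). RefSeq gene order came from GRCm38.p6. The pair of Sult1e1 and Sts could not be computed.

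Deviations from the group means correlated across genes between same-numbered arrays at 0.523, 0.141 and 0.636. All exceed 0.1, the limit set for reading the numbers as a pairing, which the labels do not state. Oil replicate 2 correlated better with progesterone replicate 1 (0.322), so the pairing is uncertain. Only the replicate block used it, and the main fit and the permutation tests did not. A call that passed only with the block, such as that of Hsd11b1, rests on a pairing read from these same data.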

Additional observations from a re-analysis of the deposited data

How the results depend on the processing

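The direction of Hsd11b2, Hsd11b1 and Hsd17b11 was the same under all 17 alternatives, with log2 changes of 2.81 to 3.34, -1.41 to -0.45 and -0.81 to -0.56. The count of 1 higher and 1 lower member was the same under all but 2 of them. With the replicate block 2 members were lower, since Hsd11b1 passed, and Tspo and Hsd17b12 passed as well (adjusted p = 0.0489 and 0.0494). Without the 3 arrays with S100a8 above 11, an alternative chosen after seeing the data that leaves 1 array against 2 and assumes the lone array varies like the others, limma called 0 genes in either direction, 0 members and 0 of the steroid lists among them. At an unadjusted p under 0.05 there were then 3379 genes, 1 higher and 2 lower members, and 8 higher and 10 lower genes of the steroid lists.

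With each array left out in turn, 379 to 848 genes were higher and 278 to 907 lower, the lowest counts without oil replicate 2, and without oil replicate 3 and progesterone replicate 3 together (also chosen after seeing the data) 586 and 441. Fewer arrays alone lower the number of calls. Of the steroid lists, 0 to 2 genes were then higher and 3 to 7 lower, against 2 and 9 with all arrays, and 1 and 3 without both arrays of number 3. The counts of 0 higher, in limma without oil replicate 1 and without oil replicate 2, stand beside 6 and 7 at an unadjusted p under 0.05. In these lists 4 genes were higher with the lowest 25% or 50% of genes left out, with trended and robust eBayes and with the replicate block; the cause was not tested. The other alternatives were quantile normalization, array medians set equal, 32 added before taking log2, averaging the probe sets of a gene and testing every probe set; with the mean of probe sets the calls of Nr3c1, Esr1, Hsdl2 and Aff1 ended (adjusted p = 0.24, 0.138, 0.129 and 0.075). The call of Esr1 also ended under quantile normalization (0.0535), and that of Nr3c1 with array medians set equal (0.0526) and with every probe set tested (0.0587). In that last fit another bright Nr3c1 probe set changed by -0.48 on the log2 scale and passed narrowly (limma adjusted p = 0.0486). The remaining Nr3c1 probe sets, all dimmer, changed by -0.44 to 0.12 and did not pass. Under trended and robust eBayes that of Ttr ended (0.096). Hsd17b2, Akr1c18 and Sult1e1 are limited by signal near background and gave no value when the lowest genes were left out.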
